A study of Mus musculus with 5 samples.

Results

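The 10 genes described here, *Col1a1*, *Col1a2*, *Col3a1*, *Col5a1*, *Col5a2*, *Lox*, *Loxl1*, *Loxl2*, *Plod2* and *P4ha3*, encode the main fibrillar collagen chains of connective tissue and enzymes that modify and crosslink them. They were taken by name from a table of 21835 genes, and all 10 were among the 12175 genes that reached 0.5 CPM (counts scaled to the same total in every sample) in 2 or more samples and were tested. The RNA came from murine lung cancer-associated fibroblasts (CAFs), the fibroblasts that surround a tumor, cultured without cancer cells. The CAF-vec group (2 samples) carried the empty lentiviral vector and is labeled as wild-type control. The CAF-200 group (3 samples) carried a lentivirus that expresses the miR-200 cluster that yields miR-200b, miR-200a and miR-429, microRNAs processed from 1 primary transcript, so that the comparison asks how raised miR-200 changes the expression of CAFs. Cells of each group had passed G418 selection of over 2 weeks, and nothing in the labels says that the samples of a group came from separate infections or cultures, so that the *p* values measure the spread between these samples, which may be technical. The samples were bulk RNA, in which fewer cells of a type and less RNA per cell cannot be told apart.

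Fibrillar collagens are secreted as procollagens whose chains wind into a helix in the endoplasmic reticulum. Type I collagen is built from the chains of *Col1a1* and *Col1a2*, type III from the chain of *Col3a1*, and type V, which joins type I in mixed fibrils and limits their width, from the chains of *Col5a1* and *Col5a2*. Prolyl hydroxylases stabilize the helix, lysyl hydroxylases prepare the lysines for crosslinks, and the secreted lysyl oxidases then start the covalent crosslinks that make a matrix stiff. In tumors, CAFs are the main producers of this matrix.

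The miR-200 sequences are shown because the cells of the CAF-200 group were made to express them, with the seed (bases 2 to 8, the part that pairs with target mRNAs) in capitals, as given by RefSeq for GRCm38.p6. The 3 lie on the minus strand of mouse chromosome 4. The seed of miR-200b is also that of miR-429, and miR-200a has a seed of its own.
miR-200b-3p: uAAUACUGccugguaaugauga
miR-429-3p: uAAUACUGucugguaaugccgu
miR-200a-3p: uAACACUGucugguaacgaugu

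The mRNA letters that pair with these seeds are CAGTATT for miR-200b and miR-429 and CAGTGTT for miR-200a, searched on the strand of the mRNA in the longest annotated 3′-UTR of each gene (GENCODE M21, GRCm38). Of the 10 genes, 4 held such a match, *Col1a2*, *Col5a1*, *Lox* and *Loxl2*, each a single match. Of the 12060 tested genes with an annotated 3′-UTR, 30.3% held a match to either seed, 15.7% to CAGTATT and 20.9% to CAGTGTT. No match was found in the 3′-UTRs of *Col1a1*, *Col3a1*, *Col5a2*, *Loxl1*, *Plod2* and *P4ha3*, and the count was also 4 when every annotated 3′-UTR was searched. The surroundings of 3 of the matches are shown so that each can be set beside the expression of its gene, with the match in capitals and read on the plus strand. The *Col1a2* match, at 4540887 to 4540893 of chromosome 6, is the only 1 of the 4 followed by an A. The *Col5a1* match is at 28037320 to 28037326 of chromosome 2, and the *Loxl2* match is at 69695127 to 69695133 of chromosome 14.
*Col1a2* (miR-200a): caaaatgtttgCAGTGTTatttttgtggg
*Col5a1* (miR-200b and miR-429): tgggggcgggaCAGTATTtgaagatcact
*Loxl2* (miR-200b and miR-429): taatatagggtCAGTATTcattttgcata

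The cells carried fibroblast transcripts throughout. All 9 fibroblast markers were detected in every sample, and their sum was 7511 to 8935 CPM in the controls and 7168 to 7955 CPM in CAF-200, although *Thy1*, *Lum* and *Dcn* were called higher and *Dpt* lower in CAF-200. The epithelial list of 7 genes summed to at most 0.452 CPM in any sample, with *Krt18* and *Sftpc* listed at 0, the endothelial list of 6 genes to at most 0.541 CPM, and the immune list of 5 genes to at most 7.32 CPM, with *Adgre1* and *Cd3e* listed at 0. The smooth muscle and pericyte list of 7 genes summed to between 157 and 171 CPM in the controls and between 1011 and 1120 CPM in CAF-200, with *Acta2*, *Tagln* and *Cnn1* called higher, *Des* and *Cspg4* overlapping between the groups, and *Myh11* and *Rgs5* below 0.1 CPM in each sample, and its part in the results below was not tested. The study describes the protein of *Acta2*, alpha-SMA, as a myofibroblast marker and reports less of it in CAF-200 by immunostaining. *Acta2* RNA was instead at 92.8 and 126 CPM in CAF-vec and at 661, 653 and 706 CPM in CAF-200. Why protein and RNA differ was not tested. The chondrocyte and osteoblast list of 6 genes summed to at most 39.7 CPM, with *Ibsp* listed at 0. The deposited values do not give the sequencing depth, and the smallest value above 0 was 1.16e-05 CPM in CAF-200 and 0.00619 CPM in CAF-vec. Of the values above 0, 2900 were under 0.001 CPM in CAF-200 and 0 in CAF-vec, so that the columns of the groups may not have been made alike, which bears on every comparison between them and was not tested. The groups were compared by limma on log2(CPM + 0.5), with *p* adjusted over all tested genes. *Zeb1*, a known miR-200 target with 5 matches to CAGTATT and 4 to CAGTGTT, was at 43.5 and 50.7 CPM in CAF-vec and at 37.8, 37.5 and 34.1 CPM in CAF-200. The adjusted *p* was 0.0504., at a log2 fold-change of -0.36 *Zeb2* overlapped between the groups (log2 fold-change -0.23, adjusted *p* = 0.374).

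The 10 genes did not share a direction. At an adjusted *p* under 0.01 (limma), *Loxl1* was lower in CAF-200, and it was the only 1 of the 10, against 5.57% of all tested genes called lower. *P4ha3* was the only 1 called higher, against 4.45% of all tested genes. At an adjusted *p* under 0.05, 2 were lower (*Lox* and *Loxl1*) beside a background of 18.6%, and 2 were higher (*Plod2* and *P4ha3*) beside a background of 11.9%. None of the 10 passed an adjusted *p* under 0.01 with a log2 fold-change beyond 1, which 4.72% of all tested genes did, while 8 had an unadjusted *p* under 0.05 by limma, as had 44.9% of all tested genes. The CAF-200 samples all lay below both CAF-vec samples for 4 of the genes, where 37.3% of tested genes did so, and all above them for 5, where 24.3% did. The groups overlapped for *Col5a2* alone. The median log2 fold-change was 0.09 over the 10 genes and -0.09 over all tested genes. After quantile normalization *Col3a1* and *Col5a1* also passed an adjusted *p* under 0.05, as higher (0.0301 and 0.0295, limma). After centring on each sample's median *Col3a1*, *Col5a1* and *Loxl2* did (0.0338, 0.0331 and 0.0417). Over all tested genes, the higher calls at 0.01 rose in these settings as well, from 542 to 714 and 720.

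**Figure D1:**
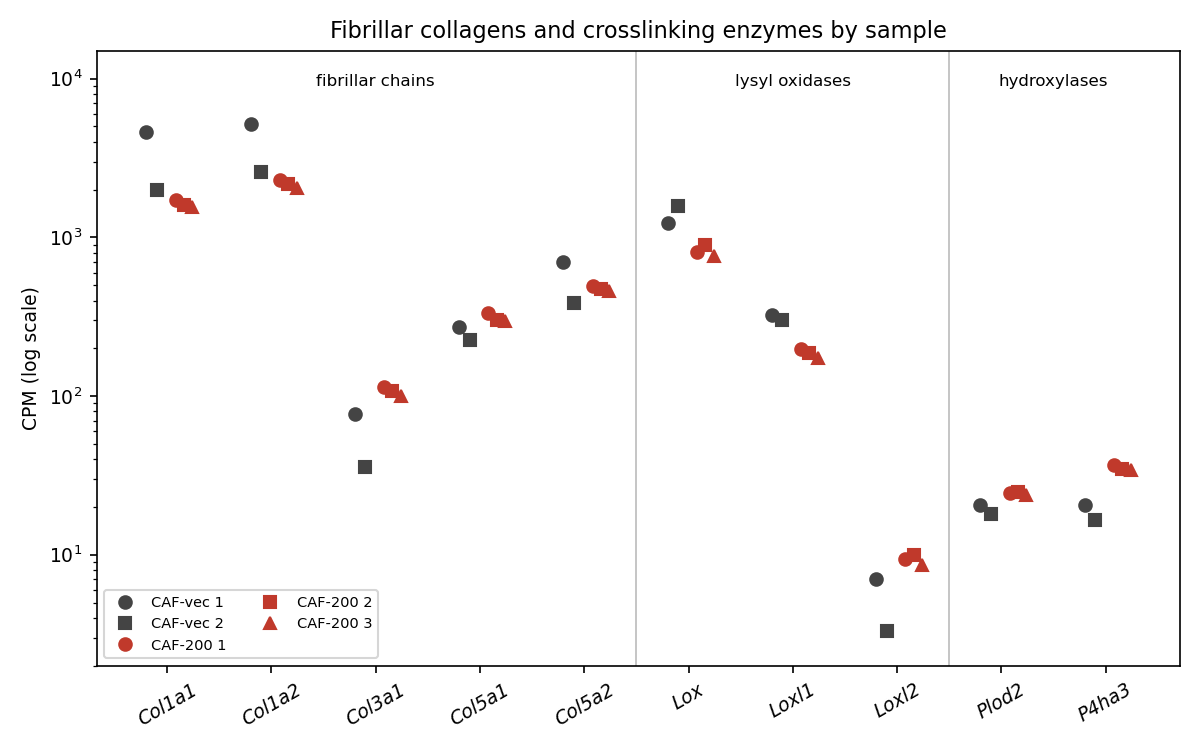
CPM of each gene in each sample on a log scale, with CAF-vec in gray and CAF-200 in red and a symbol for the replicate number. The CAF-200 samples lay below both CAF-vec samples for *Col1a1*, *Col1a2*, *Lox* and *Loxl1* and above them for *Col3a1*, *Col5a1*, *Loxl2*, *Plod2* and *P4ha3*, and the CAF-vec samples were far apart for 4 of the 5 collagen chains.

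*Col1a1* (ENSMUSG00000001506, chromosome 11, 94936224 to 94953042, plus strand, GRCm38), which encodes the chain present in more copies in type I collagen, was at 4613 and 2003 CPM in CAF-vec and at 1719, 1599 and 1543 CPM in CAF-200. CAF-vec 1 stood far above the other samples, whereas CAF-vec 2 was nearer to the CAF-200 samples and above the highest of them. The group means were 3308 ± 1845 CPM (SD, n = 2) and 1620 ± 89.7 CPM (SD, n = 3). The log2 fold-change of -0.91 (standard error 0.348, 95% interval -1.77 to -0.05) had an adjusted *p* of 0.0982 and did not pass the test. Against CAF-vec 2 alone it was -0.31, and against CAF-vec 1 alone -1.51.

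*Col1a2* (ENSMUSG00000029661, chromosome 6, 4504814 to 4541544, plus strand), the partner chain of type I collagen, followed the same order of samples. Its values were 5185 and 2567 CPM in CAF-vec and 2284, 2182 and 2048 CPM in CAF-200. Again CAF-vec 1 was the sample apart, and the groups did not overlap. The log2 fold-change was -0.75 (standard error 0.304, 95% interval -1.50 to 0.00, adjusted *p* = 0.112), and it was -0.24 against CAF-vec 2 alone and -1.26 against CAF-vec 1 alone. Its 3′-UTR carries the miR-200a match printed above, 225 bases after the stop codon, while that of *Col1a1* carries none.

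*Col3a1* (ENSMUSG00000026043, chromosome 1, 45311538 to 45349706, plus strand), the only chain of type III collagen, was measured in the opposite direction. It was at 76.9 and 35.9 CPM in CAF-vec and at 114, 107 and 99.9 CPM in CAF-200. Every CAF-200 sample was above both CAF-vec samples, and CAF-vec 1 was again the higher control, here nearer to CAF-200. Group means were 56.4 ± 29.0 CPM for CAF-vec (SD, n = 2) and 107 ± 6.87 CPM for CAF-200 (SD, n = 3). The log2 fold-change of 1.02 (standard error 0.307, 95% interval 0.26 to 1.78) was the largest of the 10 and had an adjusted *p* of 0.0542. With a lone CAF-vec sample it was 1.56 (CAF-vec 2) or 0.47 (CAF-vec 1).

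The chains of type V collagen, which help to start type I fibrils, differed from each other. *Col5a1* (ENSMUSG00000026837, chromosome 2, 27886425 to 28039514, plus strand) was at 274 and 225 CPM in CAF-vec and at 333, 302 and 299 CPM in CAF-200. All CAF-200 samples were higher than both controls, by a log2 fold-change of 0.32 (standard error 0.123, 95% interval 0.02 to 0.62, adjusted *p* = 0.0977). Against CAF-vec 1 alone it was 0.18 and against CAF-vec 2 alone 0.46. *Col5a1* held a CAGTATT match and was measured higher, without passing the test, and whether miR-200 acts on the match was not tested. *Col5a2* (ENSMUSG00000026042, chromosome 1, 45374321 to 45503282, minus strand) was at 702 and 388 CPM in CAF-vec and at 494, 475 and 457 CPM in CAF-200. The CAF-200 samples lay between the controls, with a log2 fold-change of -0.14 (standard error 0.249, 95% interval -0.75 to 0.48, adjusted *p* = 0.694). Its direction depended on the control, at 0.29 against CAF-vec 2 alone and -0.56 against CAF-vec 1 alone.

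The spread of the controls was itself uneven over the 10 genes. CAF-vec 1 was 2.30 times CAF-vec 2 for *Col1a1*, 2.02 times for *Col1a2*, 2.14 times for *Col3a1*, 1.81 times for *Col5a2* and 2.15 times for *Loxl2*. A ratio of at least 1.8, a limit chosen after the values were seen, was reached by these 5 genes and by 5.9% of all tested genes. The other 5 genes were closer, from 0.787 times for *Lox*, the only 1 that was lower in CAF-vec 1, to 1.23 times for *P4ha3*. Within CAF-200 the highest sample was at most 1.16 times the lowest for any of the 10 genes. Which control is nearer to CAF-200 differed by gene, CAF-vec 2 for *Col1a1* and *Col1a2* and CAF-vec 1 for *Col3a1* and *Loxl2*, and why the controls differ was not tested.

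**Figure D2:**
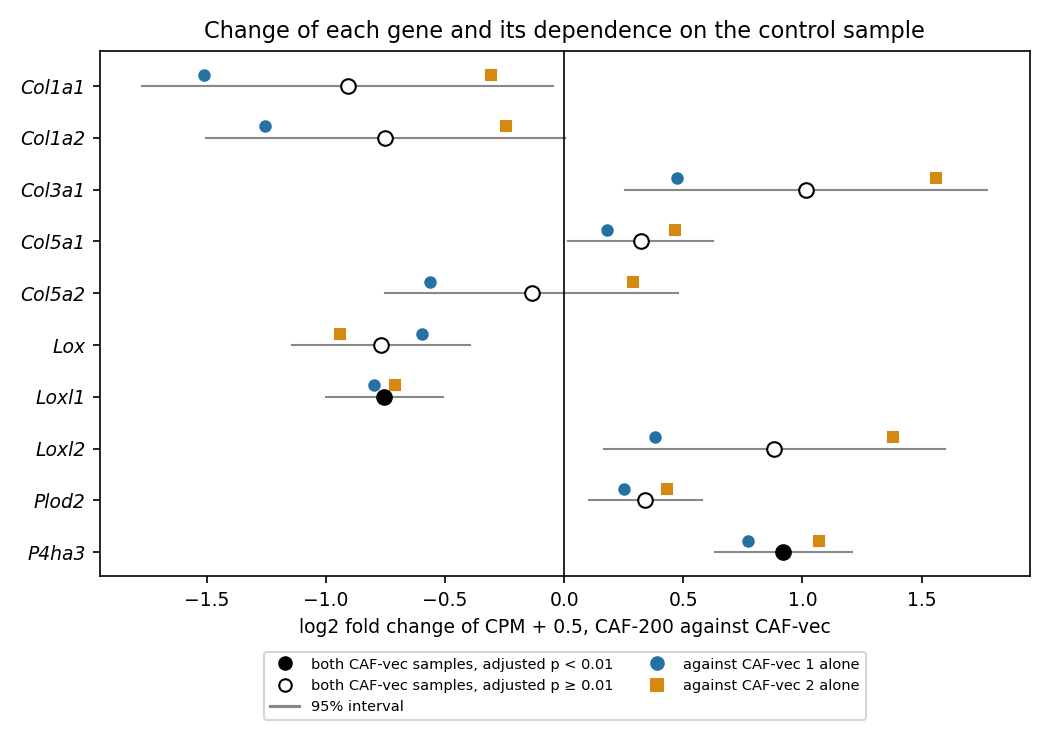
Log2 fold-change of each gene in CAF-200 on the scale of log2(CPM + 0.5) with its 95% interval (gray), filled where the adjusted *p* is under 0.01, and the values against CAF-vec 1 alone (blue) and CAF-vec 2 alone (orange). The blue and orange values of *Loxl1* nearly coincide at -0.80 and -0.71, whereas those of *Col1a1* are -1.51 and -0.31 and those of *Col5a2* lie on either side of 0.

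Because the controls differed in the collagens together, the chains were also compared within each sample, as CPM per kilobase of merged exons in percent of *Col1a1*, a comparison chosen after the values were seen and therefore given as a description, with no test. *Col3a1* was 1.12% and 1.20% of *Col1a1* in CAF-vec and 4.42%, 4.50% and 4.33% in CAF-200. The controls were thus close to each other in this ratio although *Col3a1* itself differed 2.14 times between them, and the mean ratio was 3.82 times as high in CAF-200. *Col5a1* was 4.60% and 8.69% of *Col1a1* in CAF-vec and 15.0%, 14.6% and 15.0% in CAF-200. *Col5a2*, whose CPM overlapped, was 10.4% and 13.3% of *Col1a1* in CAF-vec and 19.7%, 20.3% and 20.3% in CAF-200. The ratios of all 3 chains were higher in each CAF-200 sample than in either control. *Col1a2* was at 59.4% and 67.7% of *Col1a1* in CAF-vec and 70.2%, 72.1% and 70.1% in CAF-200. Its ratio was thus also higher in each CAF-200 sample, by less. All of these ratios share *Col1a1* as the denominator, which was itself measured lower in CAF-200. The choice of length rescales these percentages but not the ratio of CAF-200 to CAF-vec.

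**Figure D3:**
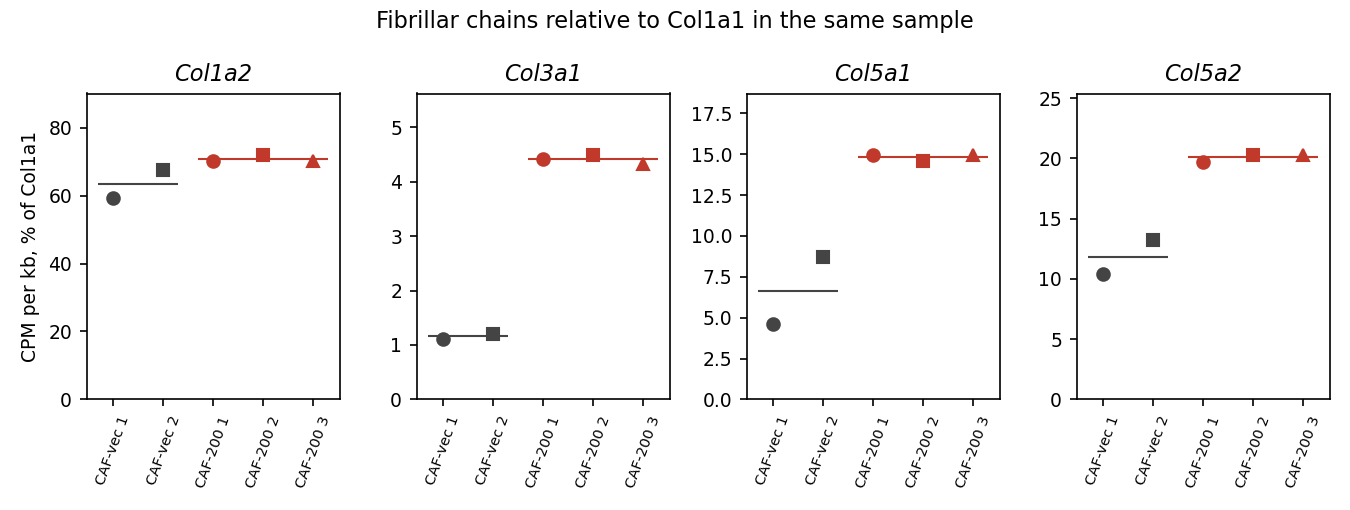
CPM per kilobase of 4 fibrillar chains in percent of *Col1a1* in the same sample (points) with group means (lines), CAF-vec in gray and CAF-200 in red, each panel with its own scale from 0. For *Col3a1* the CAF-vec samples lie at 1.12% and 1.20% and the CAF-200 samples between 4.33% and 4.50%, and the means of *Col1a2* lie at 63.5% and 70.8%.

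The 5 chains summed to 10851 and 5219 CPM in the controls, against 4943, 4665 and 4447 CPM in CAF-200, so that the second control lay near the CAF-200 samples. Type I chains made up 90.3% and 87.6% of this sum in CAF-vec and 81.0%, 81.1% and 80.7% in CAF-200, and every CAF-200 sample was below both controls. Per kilobase of merged exons, the highest CAF-vec means were those of *Col1a1* (504 ± 281 CPM per kb, SD, n = 2), *Col1a2* (312 ± 149) and *Lox* (295 ± 49.7). *Col1a1* was above *Col1a2* in both controls, whereas *Lox*, at 259.5 and 330 CPM per kb, was below both chains in CAF-vec 1 (703 and 417) and above both in CAF-vec 2 (305 and 207). In CAF-200 the means of *Col1a1*, *Col1a2* and *Lox* were 247 ± 13.7, 175 ± 9.54 and 172 ± 13.1 CPM per kb (SD, n = 3), and *Col1a2* and *Lox* did not differ beyond their spread. *Loxl1*, at 56.3 ± 3.71 CPM per kb in CAF-200, came next in either group, ahead of *Col5a2* and *Col5a1*. *P4ha3*, *Col3a1*, *Plod2* and *Loxl2* stayed below 12 CPM per kb in each group. With the longest coding transcript as the length, *Col1a2* was above *Col1a1*, at 725 against 558 CPM per kb in CAF-vec and 406 against 273 in CAF-200, and *Col5a2* (71.7) was above *Loxl1* in CAF-200. On that length *Lox* was below both chains in CAF-vec 2 as well (332 against 338 for *Col1a1* and 480 for *Col1a2*), and in CAF-200, at 173 ± 13.2, it was below *Col1a2* (406 ± 22.2) by more than their spread. The merged exons of *Col1a2* are 12426 bases and its longest coding transcript is 5348 bases.

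Among the lysyl oxidases, the secreted copper enzymes that oxidize lysines of collagen and elastin, *Loxl1* was called lower in CAF-200, and *Lox* and *Loxl2* did not pass 0.01, with log2 fold-changes of -0.77 and 0.88. *Lox* (ENSMUSG00000024529, chromosome 18, 52516067 to 52529867, minus strand), the founding member of the family, was at 1240 and 1576 CPM in CAF-vec and at 804, 890 and 769 CPM in CAF-200. Each CAF-200 sample was well below both controls. Group means were 1408 ± 237 CPM for CAF-vec (SD, n = 2) and 821 ± 62.6 CPM for CAF-200 (SD, n = 3). The log2 fold-change of -0.77 (standard error 0.151, 95% interval -1.14 to -0.40) had an adjusted *p* of 0.0163, short of 0.01. It did not pass 0.05 with sample weights (adjusted *p* = 0.0545) or when any CAF-200 sample was left out (0.0649 to 0.0900). Against CAF-vec 1 alone the log2 fold-change of *Lox* was -0.60 and against CAF-vec 2 alone -0.94. Its 3′-UTR of 3160 bases held 1 match to CAGTGTT, at 52518990 to 52518996.

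*Loxl1* (ENSMUSG00000032334, chromosome 9, 58287738 to 58313186, minus strand), which is best known for crosslinking elastin, fell, and it had the smallest standard error among the 5 genes whose fold change was negative on the log2 scale. It was at 323 and 303 CPM in CAF-vec and at 197, 187 and 173 CPM in CAF-200. The samples of each group were close together and the groups lay far apart. The control mean of 313 ± 13.9 CPM (SD, n = 2) was 1.69 times the CAF-200 mean of 186 ± 12.2 CPM (SD, n = 3). The log2 fold-change was -0.75 (standard error 0.0999, 95% interval -1.002 to -0.51, adjusted *p* = 0.00627). The call was lost with sample weights (adjusted *p* = 0.0318) and when any of the CAF-200 samples was left out (adjusted *p* from 0.0381 to 0.0488), while the log2 fold-change stayed between -0.80 and -0.70. Over all 12175 genes, sample weights left 60 lower and 90 higher calls, and leaving out a CAF-200 sample left 0 to 1 call in all. Its 3′-UTR held no seed match.

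*Loxl2* (ENSMUSG00000034205, chromosome 14, 69609068 to 69695834, plus strand), a lysyl oxidase with scavenger receptor domains, was the lowest of the 10 genes. It was at 7.06 and 3.29 CPM in CAF-vec and at 9.43, 10.0 and 8.66 CPM in CAF-200. CAF-200 was above both controls, and CAF-vec 1 was nearer to it. The log2 fold-change of 0.88 (standard error 0.290, 95% interval 0.17 to 1.60, adjusted *p* = 0.0674) did not pass the test, and it was 0.38 against CAF-vec 1 alone and 1.38 against CAF-vec 2 alone. Like *Col5a1*, *Loxl2* held a CAGTATT match, and whether miR-200 acts on it was not tested. *Loxl2* and *Plod2* share exon positions with noncoding genes on the opposite strand, and whether the counting used strand is not given in the sources used here.

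*Loxl3*, a family member outside the 10 genes, was called higher, with a larger log2 fold-change than any of them. It was at 107 and 77.1 CPM in CAF-vec and at 264, 245 and 279.5 CPM in CAF-200. The groups did not overlap, and the lowest CAF-200 sample was over 2 times the highest control. The log2 fold-change was 1.53 (standard error 0.158, adjusted *p* = 0.00369). *Loxl4* was at 73.0 and 56.9 CPM in CAF-vec and between 49.9 and 51.1 CPM in CAF-200. The adjusted *p* was 0.0779., at a log2 fold-change of -0.35 As a share of the 5 lysyl oxidases per kilobase of merged exons, *Lox* was 65.0% and 72.9% in CAF-vec and 56.3%, 60.0% and 56.0% in CAF-200. *Loxl3* was 5.83% and 3.70% in CAF-vec and 19.2%, 17.2% and 21.1% in CAF-200. Neither share overlapped between the groups, and no test was made of them, since their choice followed the values. *Loxl3* shares exon positions with *Htra2* on the opposite strand.

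The hydroxylases were both measured higher in CAF-200. *P4ha3* (ENSMUSG00000051048, chromosome 7, 100285520 to 100319699, plus strand), a catalytic subunit of prolyl 4-hydroxylase, was at 20.4 and 16.5 CPM in CAF-vec and at 36.7, 34.8 and 34.2 CPM in CAF-200. The CAF-200 samples lay well above both controls and close to each other. The CAF-200 mean of 35.3 ± 1.33 CPM (SD, n = 3) was 1.91 times the control mean of 18.5 ± 2.75 CPM (SD, n = 2). The log2 fold-change was 0.92 (standard error 0.116, 95% interval 0.63 to 1.21, adjusted *p* = 0.00566). The call was lost with sample weights (adjusted *p* = 0.0161) and when any CAF-200 sample was left out (adjusted *p* from 0.0379 to 0.0407), settings in which few or no genes of the whole table were called, while the log2 fold-change stayed between 0.89 and 0.94. Against CAF-vec 1 alone it was 0.77 and against CAF-vec 2 alone 1.07.

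*Plod2* (ENSMUSG00000032374, chromosome 9, 92542223 to 92608428, plus strand), the lysyl hydroxylase that acts on collagen telopeptides, was at 20.5 and 17.98 CPM in CAF-vec and at 24.7, 24.8 and 23.9 CPM in CAF-200. The CAF-200 samples were nearly equal and above both controls, by less than for *P4ha3*. The log2 fold-change was 0.34 (standard error 0.0952, 95% interval 0.11 to 0.58), with an adjusted *p* of 0.0438, short of 0.01. It did not pass 0.05 without a filter (adjusted *p* = 0.0560), without a variance trend (0.0517), with sample weights (0.158) or when any CAF-200 sample was left out (0.142 to 0.164). Against CAF-vec 1 alone the log2 fold-change was 0.25 and against CAF-vec 2 alone 0.43. The 3′-UTRs of *P4ha3* and *Plod2* held no seed match.

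Other genes of collagen synthesis and turnover were read from 8 lists of 51 genes in all, of which 43 were tested. At an adjusted *p* under 0.01, 2 were lower and 3 higher, beside 5.57% and 4.45% of all tested genes. Of these 2 and 3 genes, *Loxl3* and *Mmp14* were still called with sample weights and none when any CAF-200 sample was left out. At an adjusted *p* under 0.05, 14 were lower and 3 higher, beside 18.6% and 11.9% of all tested genes. Every CAF-200 sample was below both controls for 24 of the 43 and above both for 5, beside 37.3% and 24.3% of all tested genes. The median log2 fold-change over the 43 genes was -0.26, against -0.09 over all tested genes.

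No other prolyl or lysyl hydroxylase was called together with *P4ha3*. Of the 8 other prolyl hydroxylase genes, all tested, none passed an adjusted *p* under 0.01 and 2 had an unadjusted *p* under 0.05 (limma), both lower. The other catalytic subunits *P4ha1* and *P4ha2*, named here after their values were seen, overlapped between the groups, with log2 fold-changes of -0.07 (95% interval -0.28 to 0.15) and -0.09 (95% interval -0.35 to 0.16). *P4hb*, the shared beta subunit and the most abundant gene of its list, was at 1145 and 548 CPM in CAF-vec and at 659.5, 609 and 632 CPM in CAF-200, so that CAF-vec 1 stood apart here as well. *P3h1*, a prolyl 3-hydroxylase also named after its values were seen, was at 57.05 and 36.45 CPM in CAF-vec and at 23.2, 29.2 and 23.2 CPM in CAF-200. The adjusted *p* was 0.0328., at a log2 fold-change of -0.85 Of the other lysyl hydroxylases and collagen glycosyltransferases, 3 of 4 were tested and none was called at 0.01 (1 at an unadjusted *p* under 0.05, limma). *Plod3*, the most abundant of them, overlapped between the groups (log2 fold-change -0.30, 95% interval -0.79 to 0.19, adjusted *p* = 0.287).

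Among 9 genes of collagen folding, *Fkbp7*, a peptidyl-prolyl isomerase of the endoplasmic reticulum, rose from 28.3 and 34.6 CPM in the controls to 55.7, 57.8 and 56.6 CPM in CAF-200 (log2 fold-change 0.85, standard error 0.110, adjusted *p* = 0.00589), with no overlap. It was the only 1 called at 0.01. *Serpinh1*, the collagen-specific chaperone, differed little and was named after its values were seen (log2 fold-change -0.11, 95% interval -0.35 to 0.14). Of 7 genes of export from the endoplasmic reticulum, *Sec23a*, an inner coat protein of the vesicles that carry procollagen, fell from 78.3 and 89.1 CPM to 54.6, 57.2 and 52.4 CPM (log2 fold-change -0.61, standard error 0.0973, adjusted *p* = 0.00964), a call lost without a filter, with at least 1 CPM in every sample, with quantile normalization, with median centring and without a variance trend. It too was the only gene of its list called at 0.01.

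Of 8 genes of propeptide cleavage, 5 were tested and *Tll1*, a tolloid-like procollagen C-proteinase, was the only 1 called at 0.01. It rose from 13.5 and 12.6 CPM in CAF-vec to 28.8, 24.2 and 35.1 CPM in CAF-200 (log2 fold-change 1.13, standard error 0.165, adjusted *p* = 0.00795), a call lost without a filter and with sample weights. The other 4 tested genes had every CAF-200 sample below both controls, 3 of them with an adjusted *p* under 0.05. The most abundant of these, named after its values were seen, was *Pcolce*, the enhancer of that proteinase activity, at 2281 and 1788 CPM in CAF-vec and 1301, 1276 and 1210 CPM in CAF-200. The adjusted *p* was 0.0226., at a log2 fold-change of -0.68

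Of 8 genes of collagen uptake and breakdown, 6 were tested and *Mmp14*, a membrane-bound collagenase, was called lower at 0.01. It fell from 417 and 453 CPM in CAF-vec to 227, 222 and 224 CPM in CAF-200, with both groups tight (log2 fold-change -0.95, standard error 0.0909, adjusted *p* = 0.00318). The collagen receptors *Ddr1* and *Ddr2*, named after their values were seen, had log2 fold-changes of -1.14 (adjusted *p* = 0.0136) and -0.50 (adjusted *p* = 0.0183). The secreted collagenase *Mmp13* was listed at 0 in CAF-vec, below 0.05 CPM in CAF-200, and was not tested.

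Of the 5 further fibrillar chains that were listed, 3 were tested and none was called at 0.01 (1 at an unadjusted *p* under 0.05, limma). *Col2a1*, the chain of cartilage type II collagen and the most abundant of the list, was at 8.06 and 4.004 CPM in CAF-vec and at 8.999, 7.74 and 8.77 CPM in CAF-200, which overlap (log2 fold-change 0.53, adjusted *p* = 0.183). As with *Col1a1* and *Col3a1*, the higher control was CAF-vec 1, at 2.01 times CAF-vec 2.

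**Figure D4:**
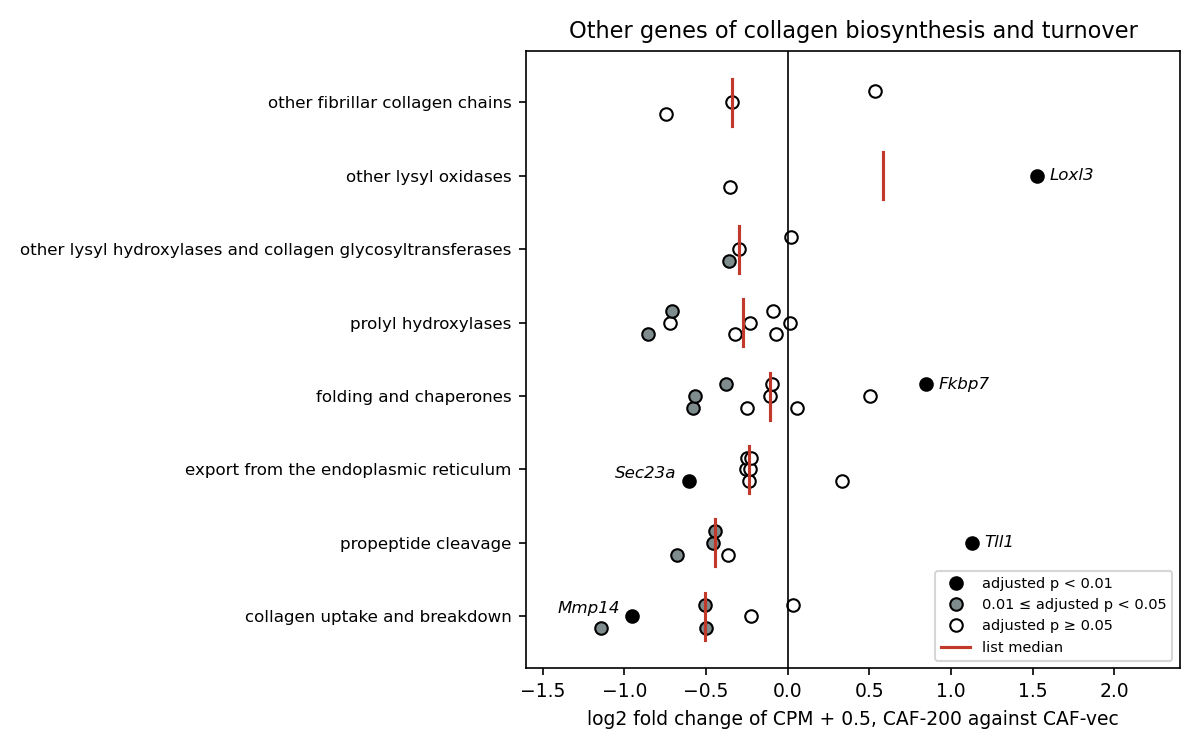
Log2 fold-change in CAF-200 on the scale of log2(CPM + 0.5) of the 43 tested genes of 8 lists, black where the adjusted *p* is under 0.01, gray where it is under 0.05, with the median of each list in red. *Loxl3*, *Fkbp7* and *Tll1* lie to the right at 1.53, 0.85 and 1.13, *Sec23a* and *Mmp14* to the left at -0.61 and -0.95, and all list medians but that of the other lysyl oxidases are below 0.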

How the data were processed

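Stranded mRNA libraries of 5 samples were sequenced, and the authors deposited normalized CPM values in a single table. The submitters' processing notes name FastQC, cutadapt, Trimmomatic, STAR, RSEM and edgeR, without versions, and the builds GRCm38 and mm10. Labels and methods differ in the selection marker of the vector and in the RNA kit, and the labels were followed. The methods describe 3 extractions per group, and 2 CAF-vec samples were analysed here. Columns summed to between 999956 and 1000111 CPM, whole reads could not be recovered, and the depth is unknown, so no counting interval is given.

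A gene was tested where 2 or more samples reached 0.5 CPM. The groups were compared by limma 3.58.1 (R 4.3.3, variance trend) after a log2 transform of CPM plus a pseudocount of 0.5 CPM, with Benjamini-Hochberg adjustment over all 12175 genes and calls at an adjusted *p* under 0.01. A fold change on this scale understates that of low genes. The fit takes 1 spread per gene for both groups. Where sample weights were used, they were 0.249 for each CAF-vec sample and 2.25 to 2.77 for the CAF-200 samples, so that the controls counted less. The fit was tested on simulated data in which both groups had the spread of the CAF-200 samples. That test therefore does not cover controls that vary more than CAF-200. Coordinates, lengths and 3′-UTRs came from GENCODE M21, and 21795 of the identifiers matched it. The members and lists were chosen with earlier results of these data known, and 1 marker gene is not reported here. Each member was named, with the called genes of each list (at most 4) or otherwise its most abundant gene, and other names were added after their values were seen. Alternatives changed the pseudocount, filter, scaling, variance trend, sample weights, threshold, replicate block, lengths and 3′-UTRs, or left out each sample.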

Additional observations from a re-analysis of the deposited data

How the results depend on the processing

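The calls of *Loxl1* and *P4ha3* held with a pseudocount of 1 or 0.1 CPM, without a filter, with at least 1 CPM in every sample, with quantile normalization, with centring on each sample's median and without a variance trend. Of the 10 members (1 lower and 1 higher), 0 were called lower and 0 higher with sample weights, 2 and 2 at an adjusted *p* under 0.05, and 0 and 0 with a log2 fold-change beyond 1. At an unadjusted *p* under 0.05 (limma), 3845 of all 12175 genes differed with sample weights, and 4065, 3924 and 3821 without CAF-200 1, 2 or 3. Of the members, 4 were lower and 4 higher at that level with sample weights. Leaving out 1 sample gave 0 to 5 lower and 0 to 5 higher, the 0 being for each CAF-200 sample, where 2 were lower and 2 to 4 higher at an unadjusted *p* under 0.05. Without CAF-vec 2 the lower members were *Col1a1*, *Col1a2*, *Col5a2*, *Lox* and *Loxl1*, and without CAF-vec 1 the higher were *Col3a1*, *Col5a1*, *Loxl2*, *Plod2* and *P4ha3*. In these fits the lone control is assumed to vary like CAF-200. Over all 12175 genes, 3766 were lower and 2307 higher without CAF-vec 2, 1951 and 1550 without CAF-vec 1, and 0 to 1 in all without a CAF-200 sample. Each member kept its direction under all 14 alternatives, except *Col5a2*, which turned from -0.14 to 0.29 without CAF-vec 1 and ranged from -0.56 to 0.29 over the samples left out. Of the related genes (2 lower and 3 higher), 1 was lower without a filter, 1 with at least 1 CPM in every sample, 1 after median centring and 1 with sample weights, where 1 was higher. In each the call of *Sec23a* was lost, as it was with quantile normalization, where *Ddr1* was called, and without a variance trend, where *P3h2* was. The call of *Tll1* was lost without a filter. At an adjusted *p* under 0.05, 14 were lower and 3 higher, and with a log2 fold-change beyond 1, 0 were lower and 2 higher. Leaving out 1 sample gave 0 to 23 lower and 0 to 5 higher. Of all calls, 55.6% were lower, against 46% after quantile normalization and 43% after median centring. Where calls were lost, the cause was not tested.

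The labels number samples 1 to 3 without saying that a number marks a shared culture or day. With the replicate number as a block over the 2 pairs, 0 members were lower and 0 higher, and 0 related genes lower and 0 higher (limma). At an unadjusted *p* under 0.05, 3 members were lower and 3 higher, and 13 related genes lower and 4 higher, and 4054 of all 12175 genes differed at that level. Over all genes, 70 were called lower and 101 higher. The adjusted *p* was 0.0504 for *Loxl1* and 0.0235 for *P4ha3*, 0.0882 for *Lox* and 0.180 for *Plod2*. Deviations from the group means correlated at 0.25 for number 1 and 0.13 for number 2, and at 0.12 for CAF-vec 2 with CAF-200 3, which share no number. With 2 controls the deviations of CAF-vec 1 and CAF-vec 2 mirror each other. These values are therefore not independent and cannot decide whether the numbers mark pairs.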
